A study of Mus musculus with 25 samples.

Results

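The cytoplasmic ribosomal protein genes encode the proteins of the ribosomes that translate messenger RNA in the cytosol. They were chosen by gene symbol (Rpl or Rps with a number, Rplp0 to Rplp2, and Rpsa) among rows that reached 50 normalised counts in at least 1 column of the deposited tables. Of 38087 genes in each table, 84 had such a symbol and 83 were members. Rpl10l, a copy of Rpl10 known from the testis, was listed at 0 in every column and stayed out. The members were 47 genes of the large subunit, 33 of the small subunit and the 3 genes of the acidic stalk, the flexible part of the large subunit that recruits translation factors. In the cells sorted from muscle 82 members reached the level, in cultured macrophages 82, and 81 did so in both. Rpl3l passed only through neutrophils and Rpl39l only through cultured macrophages.

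Poly-A RNA was sequenced from cells of adult male C57BL/6J mice, 2 to 4 months old per the labels. The tibialis anterior muscle was injured with cardiotoxin (CTX), a venom toxin that destroys muscle fibres, and CD45+ leukocytes were sorted into Ly6Ghigh neutrophils (day 1, 3 samples), Ly6Clow F4/80high macrophages (day 2, 3 samples; day 4, 2 samples) and Ly6Chigh F4/80low macrophages (day 2, 3 samples; day 4, 2 samples). All 5 muscle groups came from injured muscle, and no uninjured group was used here. Bone marrow-derived macrophages (BMDM), grown from marrow with M-CSF and re-plated without it, were given 10 nM of the lipid mediator resolvin D2 (RvD2) for 4 h (3 libraries) or left untreated (3 libraries). Each muscle column is the authors' mean over the samples of a group on a log2 scale, so muscle values have no error and no test. Marker genes fitted the sort labels in that Ly6g was listed at 0 in the 4 macrophage columns and S100a9 was at log2 17.12 in neutrophils, but fibroblast markers summed to 23710 normalised counts in Ly6Chigh cells at day 4, against 79.7 to 1708 in the other 3 macrophage columns. They summed to 34948 to 55006 in the 6 BMDM libraries.

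A ribosome has a small subunit, which reads the messenger RNA, and a large subunit, which joins amino acids. Most of the proteins are needed in equal amounts, so cells make them in step, and imbalance is known to activate p53. Many of their messenger RNAs begin with a C followed by a run of pyrimidines, called the TOP (terminal oligopyrimidine) motif, through which mTOR and Larp1 control their translation. A change in that control need not alter the amount of messenger RNA, which is what was measured here. The genes have many processed pseudogenes, and reads from a gene and a near-identical copy cannot be told apart. GENCODE M21 names 294 pseudogenes after 56 of the members, counting only names that end in -ps and a number. Copies named otherwise, such as Rpl39-ps, are not in these counts of named pseudogenes. The sources used here do not say how reads that fit several places were counted, so the level of any member may hold reads of its copies or lack reads given to them.

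The starts of 8 genes that the results turn on are shown because the TOP motif is read there. Each window is 30 bases of GRCm38.p6 from RefSeq, 15 before the annotated start and 15 from it, 5′ to 3′ on the gene's strand. Capitals mark a C within 5 bases of the annotated start and the 4 or more C or T letters that follow it. 
Rps27, chr3:90213634-90213663, minus strand: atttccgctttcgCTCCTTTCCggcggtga
Rps27l, chr9:66946071-66946100, plus strand: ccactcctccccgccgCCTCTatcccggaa
Rps6, chr4:86857353-86857382, minus strand: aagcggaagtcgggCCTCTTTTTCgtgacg
Rps9, chr7:3704026-3704055, plus strand: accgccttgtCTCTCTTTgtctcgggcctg
Rps18, chr17:33955651-33955680, minus strand: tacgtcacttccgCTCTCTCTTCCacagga
Rpl39, chrX:37085208-37085237, minus strand: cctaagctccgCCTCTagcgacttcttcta
Rpl39l, chr16:10170213-10170242, plus strand: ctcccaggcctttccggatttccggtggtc
Rps4x, chrX:102189377-102189406, minus strand: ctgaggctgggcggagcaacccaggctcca
Rps18, Rps6, Rps27 and Rps9 had the longer marked runs, while no run of this kind began within 5 bases of the annotated start in Rpl39l or Rps4x. Rps27l has another annotated start, not shown (window chr9:66946398-66946427, plus strand), with no such run. The table gave 73 promoters for 61 members, matched by symbol.

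Such a run stood at 31 of the 73 member promoters (42.5%), against 6027 of all 32851 promoters in the table (18.3%). The letters CCGGAAG, the core of ETS and GABP sites, searched on both strands from 250 bases before to 50 after the start, were in 35.6% of member promoters and 8.86% of all. The YY1 motif AAGATGG was in 16.4% of member promoters and 6.34% of all. The TATA motif TATAAA was in 9.59% of member promoters and 13.6% of all. The last 3 letters of the ETS motif can be the first 3 of the YY1 motif, so these matches may overlap. These matches describe the letters in the window and say nothing of binding.

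Levels were compared between genes only per kilobase of annotated exon, and as the mean over the 5 muscle columns. On that scale 47 members lay within 2-fold of the members' median of 648 normalised counts per kilobase and 70 within 4-fold. Rplp1 of the acidic stalk was highest at 9170, followed by Rpl8 of the large subunit at 6589, Rps15 of the small subunit at 4842 and Rplp0 of the stalk at 4641. Rpl39l, a copy of Rpl39 best known from the testis, was lowest at 3.32 per kilobase, followed by Rpl3l, a copy of Rpl3 best known from striated muscle, at 11.0, Rpl22l1, the paralog of Rpl22, at 100.3 and Rpl21 at 121.6. Long annotated exons lower this value, and Rpl21 has 15 named pseudogenes. Exons of 21 members overlap a gene on the opposite strand, and the library kit as described does not mark strand.

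A pair of rows need care. The row labelled Rpl24 carries the identifier of Zbtb11, a zinc finger gene, in GENCODE M21, so its values are not read as those of Rpl24. Rps12l1 is a processed pseudogene in GENCODE M21. Both count as members by symbol, and medians and counts without them are given with the alternatives.

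Neutrophils had the lowest ribosomal protein messenger level of all 5 muscle columns. Neutrophils came only from day 1 and macrophages only from days 2 and 4. Cell type and day after injury therefore cannot be told apart in any neutrophil ratio given here. Members made up 0.257% of all normalised counts in neutrophils, against 1.29% to 1.57% in the 4 macrophage columns. The median log2 ratio of neutrophils to the mean of the 4 macrophage groups, computed on normalised counts + 10, was -1.44 over the 83 members, against 0.10 over all 12084 genes that reached 50 in that comparison. Of the members, 81 were below 0, and 80 were lower in neutrophils than in every macrophage column. A difference was called at 2-fold or more with the higher side at 50 or more: 63 members were called lower, while 28.9% of all genes were, and 1 was called higher, while 30.7% of all genes were. All 33 small-subunit genes were below 0, with a median of -1.42, and the large-subunit genes with enough level had a median of -1.48. Among 3964 genes at 1000 or more in this comparison the median was 1.08. It was -1.51 for the 64 members that reached 1000 in some column of either table. In bulk samples fewer cells of a type and less RNA per cell cannot be told apart. The 5 macrophage markers summed to 41200 normalised counts in neutrophils and 174339 to 295243 in the macrophage columns. Their own log2 ratios ran from -6.34 (Mertk) to -0.83 (Cd68), so the sum does not give a share of cells. The part of macrophages in the members' ratios was not tested. In these columns the neutrophil total, to 3 significant digits, was 26000000 normalised counts, against 11900000 to 12800000 normalised counts in macrophages. With all columns scaled to equal totals the members' median was -2.48 and that of all genes -1.02, 80 members were called lower and 0 higher, and 50.4% of all genes were called lower and 14.0% higher. Relative to the median of all genes the members' median was -1.54 as deposited and -1.46 after scaling.

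Rps4x, the X-linked small-subunit protein S4, differed most. It had 302 normalised counts in neutrophils, against 3163 and 3787 in Ly6Clow and Ly6Chigh cells at day 2 and 3670 and 3890 in Ly6Clow and Ly6Chigh cells at day 4, a log2 ratio of -3.54. Neutrophils stood far below the 4 macrophage columns, which lay close to each other. Rpl36a, also on chromosome X, had 49.5 in neutrophils and 347 to 384 in the macrophage columns (-2.67). Rpl10a had 309 in neutrophils and 1708 to 2065 in macrophages (-2.59), and Rps18, in the head of the small subunit, had 262 in neutrophils and 1490 to 1902 in macrophages (-2.59). Rpsa, which encodes the small-subunit protein also described as the laminin receptor precursor, had 444 in neutrophils and 2209 to 2853 in macrophages (-2.49). The other X-linked members did not share that size of difference, since Rpl39 was at -2.09 and Rpl10 at -0.31.

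The acidic stalk genes were lower too. Rplp1 was at -1.61 and Rplp0 at -1.55, while Rplp2, with 1082 normalised counts in neutrophils and 1978 to 2655 in macrophages, fell just short of the 2-fold limit. Rplp0, often used as a reference gene in quantitative PCR, had 3000 normalised counts in neutrophils, against 8097 and 11012 in Ly6Clow and Ly6Chigh cells at day 2 and 7850 and 8542 in Ly6Clow and Ly6Chigh cells at day 4. It was lower in neutrophils than in any macrophage column.

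A few members departed from that pattern. Rps27, a zinc-binding small-subunit protein, had 490 normalised counts in neutrophils, against 337 and 724 in Ly6Clow and Ly6Chigh cells at day 2 and 457 and 608 in Ly6Clow and Ly6Chigh cells at day 4, a log2 ratio of -0.06. Neutrophils lay within the range of the macrophage columns for Rps27. With equal totals the ratio was -1.10, past 2-fold. The row labelled Rpl24 was at 0.35 and, with equal totals, at -0.70. Rpl3l had 75.1 in neutrophils and 1.49 to 7.63 in macrophages, a log2 ratio of 2.65. It is a member only because of its neutrophil level, so that difference was fixed by the choice. The skeletal muscle markers summed to 541 in neutrophils, of which 3 of 6 were at 0 (Myh4, Myog and Myod1), and to 252 to 1056 in macrophages, and their part in the Rpl3l level was not tested. Rpl39l was at 1.33 in neutrophils and 1.91 to 4.29 in macrophages, under the level needed to read a ratio.

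**Figure D1:**
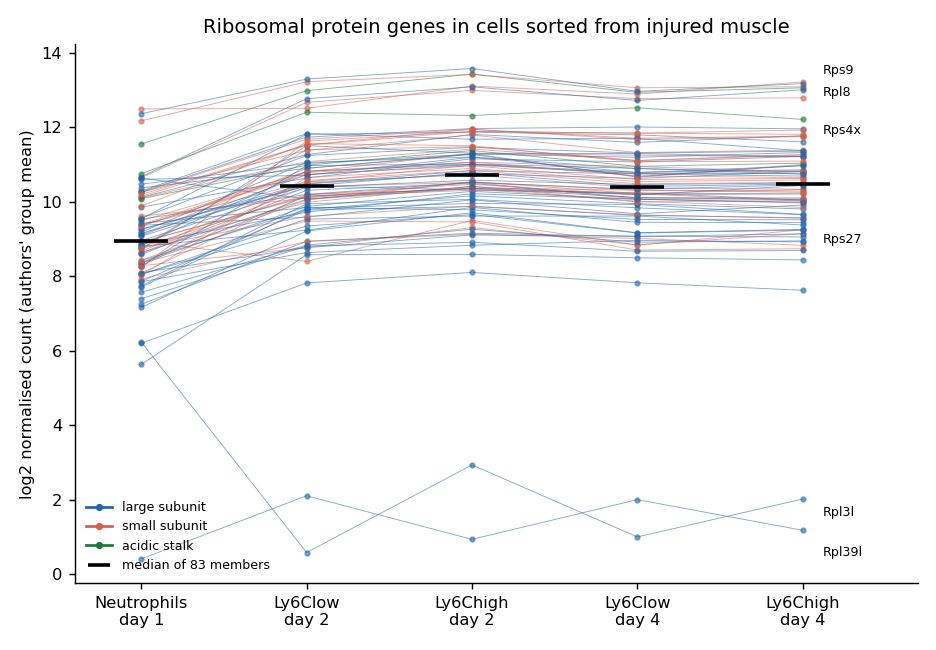
Log2 normalised count (vertical axis, the authors' group means) of the 83 members in the 5 muscle columns, with 1 line per gene coloured by subunit and black bars at the median. Most lines are lower in neutrophils than in the 4 macrophage columns, and Rpl3l and Rpl39l lie far below the rest.

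Among macrophages the members varied little. Their range over the 4 columns had a median of 0.37 on the log2 scale, and 70 of 83 stayed under 0.5. Among 12047 genes that reached 50 in a macrophage column the median range was 0.74 and 29.3% stayed under 0.5. Of the members 64 reached 1000 in some column of either table, and ranges were not compared at matched level. Rpl36a had the smallest range at 0.15, followed by Rpl27a at 0.19, Rpl31 at 0.22 and Rps21 at 0.22. Rpl3l (2.35) and Rpl39l (1.17) had the largest but at levels under 10, and after them came Rps27 (1.10) and Rps27l (0.78). Members were most often highest in Ly6Chigh cells at day 2 (66 of 83), but the share of all genes highest there was not counted. Abundant genes as a class leaned the same way. Among genes at 1000 or more, 61.0% were lower in Ly6Clow cells at day 2 than in Ly6Chigh cells at day 2. In Ly6Chigh cells 63.3% of such genes were lower at day 4 than at day 2. For the members, the lead of this column is therefore not read as particular to them. The members' share of all counts was 1.57% in Ly6Chigh cells at day 2, against 1.29% in Ly6Clow cells at day 2. It was 1.43% in Ly6Chigh cells and 1.29% in Ly6Clow cells at day 4.

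At day 2 most members were slightly lower in Ly6Clow than in Ly6Chigh macrophages. Ly6Chigh cells are the inflammatory macrophages that enter early after injury, and Ly6Clow cells are linked to repair. The members' median log2 ratio was -0.27, and 75 of 83 were below 0, while the median of all 11275 genes was -0.00 and 50.2% were below 0. Abundant genes as a class were lower as well: among 2876 genes at 1000 or more the median was -0.14 and 61.0% were below 0, against -0.27 for the 64 members that reached 1000 in some column of either table. Large-subunit and small-subunit genes had the same median of -0.27, and the stalk genes had -0.39. By size 1 member was called lower, Rps27, and 0 higher, while 5.46% of all genes were called lower and 5.9% higher. None of these ratios has a replicate check.

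Rps27 had 337 normalised counts in Ly6Clow cells and 724 in Ly6Chigh cells at day 2, a log2 ratio of -1.08. It lies at chr3:90212522-90213651 on the minus strand (GRCm38), and it is a protein-coding gene with no other annotated gene overlapping its exons. A row that GENCODE M21 names Rps27rt, a retrotransposed copy labelled Gm9846 in the table, was at 1112 in Ly6Clow cells and 2189 in Ly6Chigh cells (-0.97). Its ratio at day 4 was -0.37 in Ly6Clow against Ly6Chigh cells, and -0.09 in neutrophils, both near those of Rps27 given here, and how reads were shared between the 2 rows is unknown. Rps27 was followed by Rpl3l, whose values were under 10, by Rpl35a, a large-subunit gene that is mutated in some families with Diamond-Blackfan anaemia, at -0.60, and by Rps9, whose bacterial relative binds early in small-subunit assembly, at -0.60. Rps9 had 5829 normalised counts in Ly6Clow cells and 8823 in Ly6Chigh cells. At the other end Rpl3, which lies near the peptidyl transferase centre, was at 0.20, Rpl41, which encodes one of the shortest proteins known, at 0.15 and Rpl12, of the stalk base, at 0.11. Rpl39l at 0.26 was under 10 in both columns.

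The stalk genes and other members named differed in size and sign. Rplp0 was at -0.44 and Rplp2 at -0.39, while Rplp1 was at 0.09, so that 2 of 3 stalk genes were lower in Ly6Clow cells. Rpsa was at -0.08 and Rps4x at -0.26. Rps6, the substrate of S6 kinase, was at -0.49 with 1785 normalised counts in Ly6Clow cells and 2511 in Ly6Chigh cells. Dividing cell markers summed to 1419 in Ly6Clow cells and 235 in Ly6Chigh cells at day 2, and their part in these ratios was not tested.

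At day 4 Ly6Clow and Ly6Chigh macrophages were close for most members. The median log2 ratio was -0.02, 47 of 83 were below 0, and the median of all 11764 genes was 0.01. No member was called in either direction (0), while 4.22% of all genes were called lower and 2.98% higher. With equal totals the members' median was -0.12 and that of all genes -0.09, close to each other. Rps27 was again lowest, with 457 normalised counts in Ly6Clow cells and 608 in Ly6Chigh cells (-0.40), followed by Rps6 (-0.35), Rps9 (-0.32) and Rps13 (-0.30). Highest were Rpl41 (0.33), Rplp1 (0.31), Rpl35 (0.26) and Rpl29 (0.24). All 8 had the same sign with equal totals. Fibroblast markers summed to 1708 in Ly6Clow cells and 23710 in Ly6Chigh cells at day 4, and T and NK cell markers to 17.5 in Ly6Clow cells and 816 in Ly6Chigh cells. Of 5 plasmacytoid dendritic cell markers 3 were called lower in Ly6Clow cells. The part of these cell types in the ratios was not tested.

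**Figure D2:**
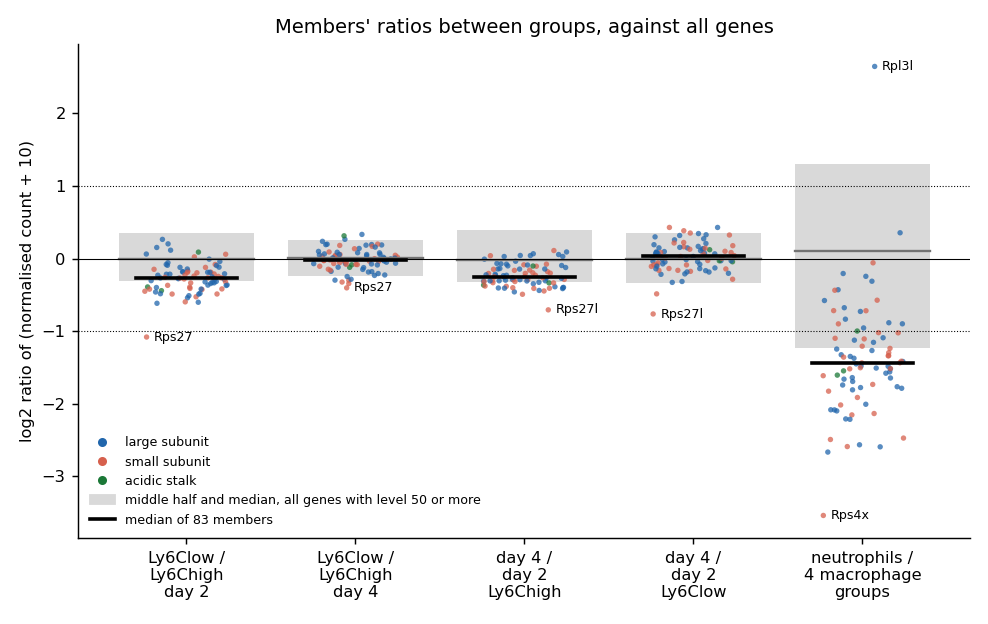
Log2 ratio of normalised counts + 10 (vertical axis) of the 83 members in the 5 muscle comparisons, coloured by subunit, with the members' median as a black bar, the interquartile range and median of all genes with level 50 or more in grey, and dotted lines at 2-fold. The members lie near -0.27 at day 2, near 0 at day 4 and near -1.44 in neutrophils.

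At day 4 most members were lower than at day 2 in Ly6Chigh cells and about level with day 2 in Ly6Clow cells. In Ly6Chigh cells the median log2 ratio of day 4 to day 2 was -0.25, with 74 of 83 below 0, while the median of all 11618 genes was -0.01. Among 2936 genes at 1000 or more in this comparison the median was -0.16. It was -0.24 for the 64 members that reached 1000 in some column of either table. With equal totals the members' median was -0.17 and that of all genes 0.08. No member was called (0), while 3.74% of all genes were called lower and 9.67% higher. In Ly6Clow cells the members' median was 0.03, with 46 of 83 above 0 and that of all 11560 genes at -0.01. Again no member was called (0), while 3.24% of all genes were called lower and 8.08% higher. Fibroblast markers summed to 23710 in Ly6Chigh cells at day 4 and 243.7 at day 2. The 7 T and NK cell markers summed to 816 at day 4 and 21.5 at day 2, and all 4 with enough level were called higher at day 4. The 5 plasmacytoid dendritic cell markers summed to 7326.5 at day 4 and 3020 at day 2, and 4 were called higher. Their sum in Ly6Clow cells was 7098 at day 4 and 4027 at day 2, and 0 of the 2 with enough level were called. In Ly6Clow cells fibroblast markers summed to 1708 at day 4 and 79.7 at day 2, and all 4 with enough level were called higher. Skeletal muscle markers summed to 1056 in Ly6Clow cells at day 4 and 303.7 at day 2, with all 4 called higher. In Ly6Chigh cells they summed to 612.2 at day 4 and 252.4 at day 2, with 1 of 2 called higher. Dividing cell markers summed to 1117.5 in Ly6Chigh cells at day 4 and 235 at day 2, and to 2032 in Ly6Clow cells at day 4 and 1419 at day 2, and the part of these lists in the ratios was not tested. These comparisons share columns with the subset comparisons, so the 4 sets of ratios are not independent of each other.

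Rps27l, the paralog of Rps27 and a known p53 target, was lowest in both subsets. In Ly6Chigh cells it had 427 normalised counts at day 4 and 703 at day 2 (-0.71), and in Ly6Clow cells 417 at day 4 and 715 at day 2 (-0.76). The 2 day 4 columns were below the 2 day 2 columns, and the subsets were close within each day. In Ly6Chigh cells Rpl22l1 (-0.46) and Rps25, which some viral messengers need to start translation (-0.45), were also among the lowest, and Rps9 (0.11), Rpl21 (0.09) and Rpl5 (0.05) were among the highest. Rpl5 is a part of the complex that binds Mdm2 when assembly fails. In Ly6Clow cells Rps2 (-0.49), Rpl8 (-0.33) and Rpl7l1 (-0.32) came next after Rps27l, and Rps27 (0.43), Rps9 (0.38) and Rps20 (0.35) were among the highest. Rps2, at the entry channel of the small subunit, had 2154 normalised counts in Ly6Clow cells at day 4 and 3024 at day 2. Rpl8, in the core of the large subunit, had 7992 at day 4 and 10042 at day 2.

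Rps27 and Rps27l encode almost the same protein and are known to replace each other in the mouse ribosome. Their log2 difference in level (Rps27l minus Rps27, not corrected for length) was 1.09 in Ly6Clow and -0.04 in Ly6Chigh cells at day 2. It was -0.13 in Ly6Clow and -0.51 in Ly6Chigh cells at day 4, and -0.58 in neutrophils. Rps27l was highest relative to Rps27 in Ly6Clow cells at day 2, where Rps27 was lowest. In BMDM the difference was 1.64 ± 0.11 with RvD2 and 1.53 ± 0.06 without (SD, n = 3 each), but BMDM and muscle tables were normalised separately. A difference within a column does not depend on that scaling.

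Rpl39l was at 1.33 to 4.29 normalised counts in the muscle columns. It is a member only because of its BMDM level, so its higher level in BMDM was fixed by the choice. In BMDM it had 292, 322 and 267 in RvD2 libraries and 330, 295 and 282 in control libraries. The groups overlapped. Its log2 difference from Rpl39 was -1.40 ± 0.16 with RvD2 and -1.37 ± 0.09 without (SD, n = 3 each). Rpl39, at the exit of the peptide tunnel, had 213 normalised counts in neutrophils and 804 to 1071 in muscle macrophages. Muscle values of Rpl39l are near the floor of the table, and their order is not read.

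Rpl22l1 and Rpl7l1 were nearer to their partners. Rpl22 itself was at -2.01 in neutrophils, and Rpl22l1 minus Rpl22 ranged from -3.24 to -2.64 over the 5 muscle columns. Rpl7l1, a relative of Rpl7 with a known role in ribosome assembly, was at 684 in neutrophils, 920 and 881 in Ly6Clow and Ly6Chigh cells at day 2, and 736 and 732 in Ly6Clow and Ly6Chigh cells at day 4. Its neutrophil ratio of -0.25 stood beside -1.48 for Rpl7, so the log2 difference between the pair was -0.70 in neutrophils and -2.26 to -1.42 in macrophages.

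**Figure D3:**
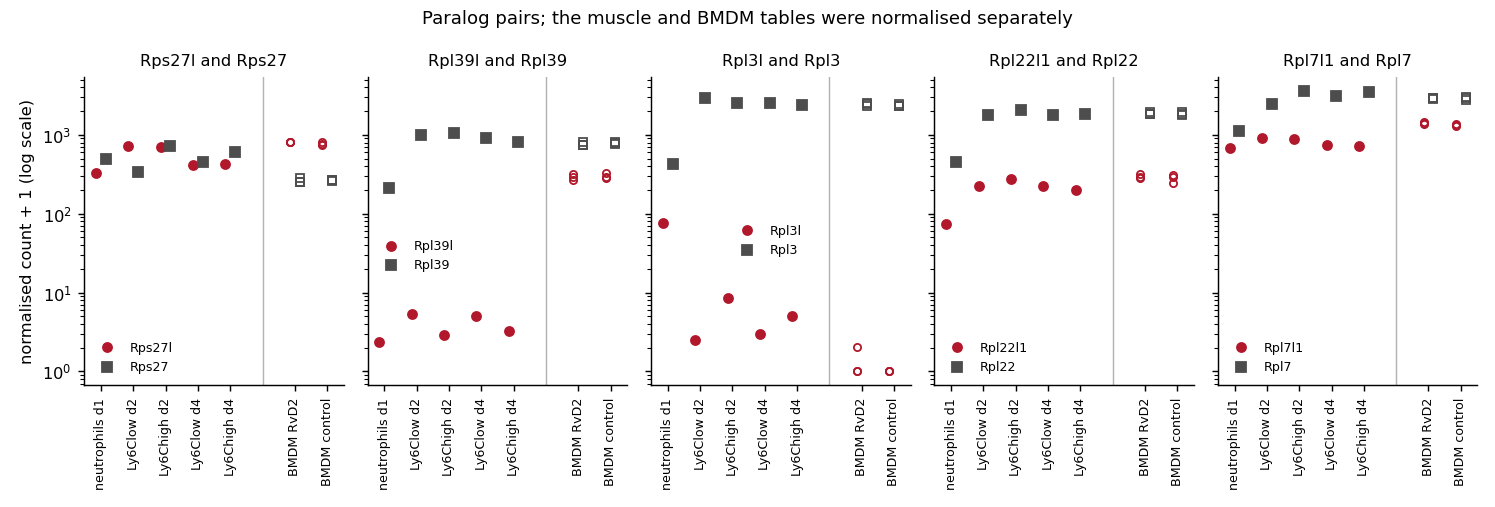
Normalised count + 1 on a log scale (vertical axis) of 5 paralogs (red circles) and their partners (grey squares) in the 5 muscle columns (filled, group means) and in single BMDM libraries (open, 3 with RvD2 and 3 control). Rpl39l is at 267 to 330 in BMDM and under 5 in muscle columns, and the rows of Rps27 and Rps27l change places between columns. The Rps27rt copy, which may hold reads of Rps27, is not drawn.

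No member passed the test for a change with RvD2 in BMDM. Depth, estimated from the step between low values, was 9120000 to 11900000 reads in RvD2 libraries and 9050000 to 14300000 reads in control libraries. These depths are rough, since only 41.0% to 51.3% of low values lay within 0.02 of a whole multiple of the step. The 14300000 of control replicate 2 rests on an inferred step, as its 2 commonest values had a ratio of 1.5 and not 2. Members took 1.32%, 1.25% and 1.20% of counts in the RvD2 libraries and 1.32%, 1.26% and 1.24% in control libraries, and the groups overlapped. In limma with Benjamini-Hochberg adjustment over 15239 genes, 0 of 82 members passed an adjusted p of 0.05, while 1.06% of all genes passed as lower (162) and 0.794% as higher (121). At an unadjusted p under 0.05 there were 2 members, both lower, and 2370 genes. The members' log2 fold changes ran from -0.26 to 0.12 with a median of -0.02, while the median of all genes was -0.00. A p that misses the threshold does not show equal levels, but the standard errors of the 82 members were 0.05 to 0.10 on the log2 scale.

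Rpl30, a large-subunit protein that regulates its own splicing in yeast, came nearest. It had 1083, 1096 and 1088 normalised counts with RvD2 and 1402, 1300 and 1211 without. All 3 RvD2 libraries were below all 3 controls. The log2 fold change was -0.26 ± 0.06 (SE), with an adjusted p of 0.0875 in limma. Over 13 alternative settings it stayed negative, with adjusted p from 0.0285 to 0.248, and it passed the threshold in 1 of them, the fit with a replicate block. Exons of Rpl30 overlap D730044K07Rik on the opposite strand, and 9 pseudogenes are named after it.

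Rpl35a had 493, 479 and 453 with RvD2 and 579, 523 and 509 without, a log2 fold change of -0.17 ± 0.07 (SE, adjusted p = 0.293 in limma). Rps2 (-0.14 ± 0.07, adjusted p = 0.391) and Rps28 (-0.15 ± 0.08, adjusted p = 0.43) had the next smallest p in the same limma fit. For 7 of 82 members all 3 RvD2 values lay below all 3 control values (8.54%), and for 2 they lay above (2.44%), against 11.7% and 9.29% of all tested genes. The stalk genes and Rpsa had log2 fold changes between -0.04 and 0.02, with adjusted p from 0.818 to 0.943 in limma. Rps27l had 817, 816 and 818 with RvD2 and 806, 752 and 757 without (0.08 ± 0.06, adjusted p = 0.538 in limma).

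**Figure D4:**
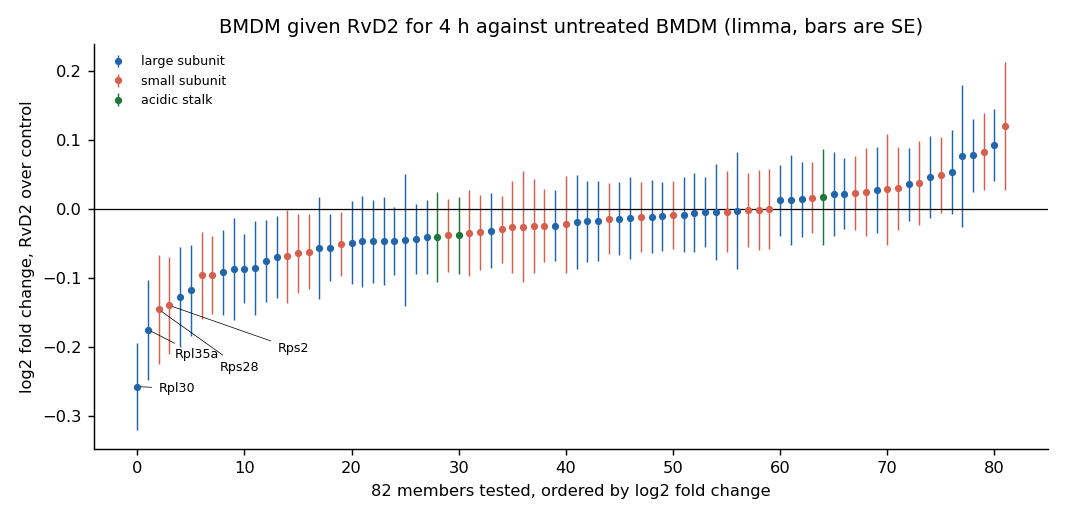
Log2 fold change of RvD2 over control in BMDM (vertical axis; points are limma estimates, bars SE, 3 libraries each) for the 82 members tested, ordered by value and coloured by subunit. Rpl30 is lowest at -0.26 and no member passes the adjusted threshold.

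The genes around the ribosome did not have the members' medians in every comparison. Their neutrophil ratios are on the deposited scaling, and equal totals lower them as it does the median of all genes. Of 76 mitochondrial ribosomal protein genes, which serve the separate ribosomes of mitochondria, 63 had a ratio above 0 in Ly6Clow against Ly6Chigh cells at day 2, and their median was 0.23, against -0.27 for the cytoplasmic members. None was called (0), while 5.46% of all genes were called lower and 5.9% higher. Mrpl51 was at 0.99 and Mrpl41 at 0.79, while Mrpl33 was at -0.70. In neutrophils they were lower like the cytoplasmic genes, with a median of -1.34. There 46 of 76 were called lower, where 28.9% of all genes were, and 1 higher (Mrpl33, 1.64), where 30.7% of all genes were. Between the days in Ly6Clow cells their median was -0.37 with 68 of 76 below 0, where the cytoplasmic members were at 0.03.

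Ribosome biogenesis factors, which process ribosomal RNA and assemble the subunits, were lower at day 4 than at day 2. Of 53, 50 were below 0 in Ly6Clow cells (median -0.67, 13 called lower, 0 higher) and 46 in Ly6Chigh cells (median -0.61, 6 called lower, 0 higher). Of all genes 3.24% were called lower and 8.08% higher in Ly6Clow cells, and 3.74% lower and 9.67% higher in Ly6Chigh cells. Rrp12, needed for export and maturation of both subunits, was lowest in both, at -1.69 in Ly6Clow and -1.50 in Ly6Chigh cells. Sbds, which helps release a factor that keeps the subunits apart, was at 0.34 in Ly6Clow cells and 0.29 in Ly6Chigh cells. In Ly6Clow against Ly6Chigh cells 46 of the 53 factors were below 0 at day 4 (median -0.28) and 40 at day 2 (median -0.15). In neutrophils 18 of 53 were called lower and 4 higher, including Npm1 at -2.70 and Utp4 at 1.72, where 28.9% of all genes were called lower and 30.7% higher. RNA polymerase I subunits and factors, which make ribosomal RNA, had medians of -0.28 and -0.39 for day 4 against day 2 in Ly6Clow and Ly6Chigh cells, with 1 called lower in Ly6Clow cells and 0 in Ly6Chigh cells, and 0 called higher in both.

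In neutrophils the counts of translation factors are read against the 28.9% of all genes called lower and the 30.7% called higher. Of 38 initiation factors 14 were called lower and 6 higher, among them Eif3e at -3.02 and Eif5 at 2.62, with a median of -0.46. Of 11 elongation and termination genes 3 were called lower and 1 higher (Etf1, the release factor, at 2.66). Among 25 genes of mTOR and TOP control 4 were called lower and 9 higher, a share of higher calls near that of all genes. Myc, which drives ribosome production, was at -3.34, Larp1 at -0.63, and Mxd1, which opposes Myc, at 4.95. Larp1 was at -0.36 in Ly6Clow against Ly6Chigh cells at day 2, and Mxd1 at -2.13. With RvD2, 0 of 38 initiation, 0 of 11 elongation, 0 of 53 biogenesis, 0 of 18 RNA polymerase I and 0 of 76 mitochondrial genes passed in limma. Of the mTOR and TOP list 1 of 25 rose, Mxi1, another antagonist of Myc, by 1.02 ± 0.13 (SE, adjusted p = 0.00813 in limma). Of 5 dividing cell markers 3 fell with RvD2, beside members that did not pass. Ccnb1 was at -0.85 ± 0.10 (SE, adjusted p = 0.00803 in limma) and Mki67 at -0.47 ± 0.08 (SE, adjusted p = 0.033). Birc5 was at -0.45 ± 0.07 (SE, adjusted p = 0.0151 in the same fit). Of all genes 1.06% passed as lower with RvD2 and 0.794% as higher.

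Rows for ribosomal protein pseudogenes had medians near those of the members. Of 219 such rows 155 reached 50 in a muscle column, and their summed counts were 36267 in neutrophils and 107030 to 129382 in macrophages, and those of the members were 66912 in neutrophils and 162838 to 196819 in macrophages. Their median log2 ratio was -1.47 in neutrophils and -0.25 in Ly6Clow against Ly6Chigh cells at day 2. Ribosomal proteins with other symbols were lower in neutrophils for Gnb2l1 (-2.60), the RACK1 protein of the small subunit, and for Rpl36al (-1.75), while Fau, which encodes a small-subunit protein fused to a ubiquitin-like one, was at -0.01. At day 2 Fau was at -0.64 in Ly6Clow against Ly6Chigh cells, short of 2-fold.

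Members with and without a pyrimidine run at the annotated start had similar medians. In neutrophils the 29 with a run had a median log2 ratio of -1.48 and the 31 without -1.42. In Ly6Clow against Ly6Chigh cells at day 2 both medians were -0.27. An annotated start can differ from the start used in these cells, which these data do not show.

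**Figure D5:**
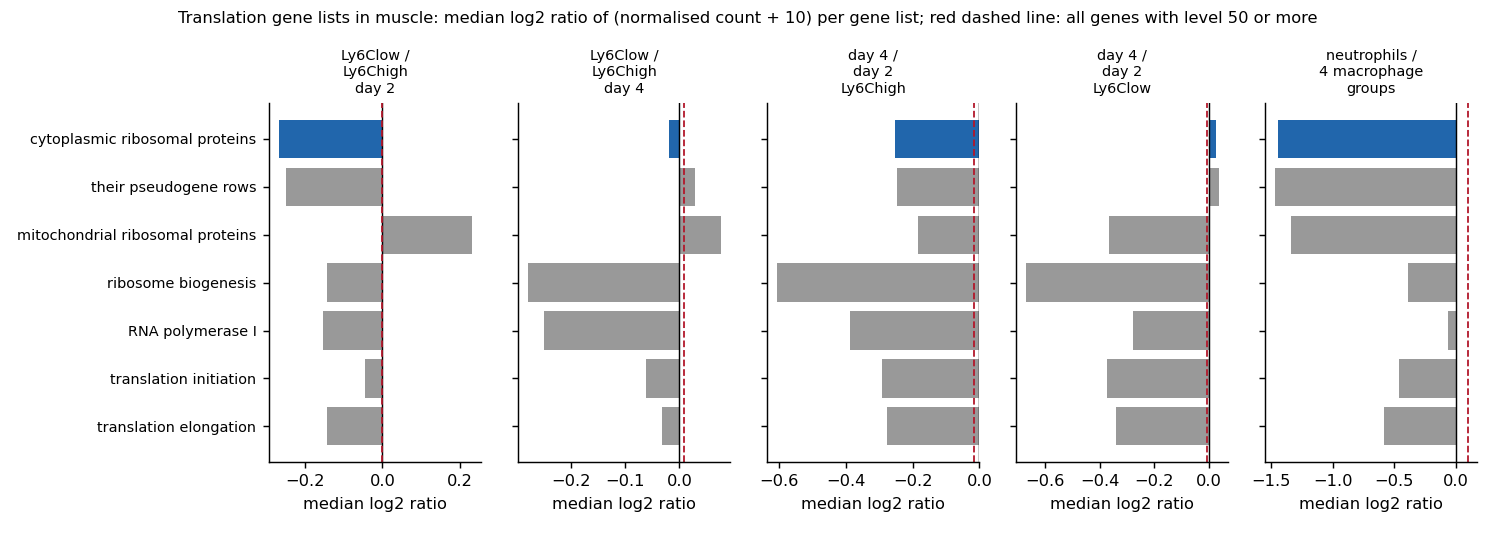
Median log2 ratio of normalised counts + 10 (horizontal axes, each with its own scale) of 7 gene lists in the 5 muscle comparisons, with the cytoplasmic members in blue and the median of all genes as a red dashed line. Mitochondrial genes are above 0 and the members below 0 at day 2, and biogenesis factors are lowest in the comparisons of day 4 with day 2.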

How the data were processed

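The deposited values are log2 normalised counts for each gene, as the authors' file headers and the values show, and anything below 1 is set to 0. The BMDM table has a column for each of 6 libraries and the muscle table a column for each of 5 groups. The authors took the muscle columns as means on the log2 scale, as the fractional spacing of the lowest values shows. TopHat2 2.0.7, DESeq and mm10 are named, without roles, per the submitters' processing notes. The annotation used and the handling of reads that fit several places are not given in the sources used here. Per the labels' protocols a poly-A TruSeq kit was used. Of 25 samples in 9 groups, 6 in 2 groups had no column and were not analysed here. Dates stood in 2 cells of muscle values, which were treated as missing.

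RvD2 was tested against control with limma (version 3.58.1, R 4.3.3) on genes whose normalised counts averaged 10 or more, using a mean-variance trend, two-sided tests, Benjamini-Hochberg adjustment over all genes and a threshold of 0.05. The procedure was checked on simulated data. Nothing in the labels says that the libraries came from separate cultures, and p-values then reflect only how much these libraries varied, which may be technical. For muscle groups, values were turned back to normalised counts, 10 was added, and log2 ratios were taken, with a call at 2-fold and a level of 50 in the higher group. Muscle depth is unknown. Other steps used Python 3.11.15, pandas 2.3.3, numpy 2.4.6 and matplotlib 3.10.9. Exons came from GENCODE M21 (GRCm38) and promoters from RefSeq (GRCm38.p6).

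The genes named were Rplp0, Rplp1, Rplp2, Rpsa, the paralog pairs, the 4 highest and 4 lowest members in each muscle comparison, by level per kilobase and by range over macrophage columns, and the 4 smallest p with RvD2, of which a few are not reported here. Further values of Rps6, the genes named from other lists and Gm9846 were chosen after they were seen. The members and lists were chosen with earlier results of these data known. Alternatives were equal totals, other pseudocounts and level limits, limma without a trend, without a level filter or with a replicate block, and leaving out each library.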

Additional observations from a re-analysis of the deposited data

Results flagged for a closer look

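The change from day 2 to day 4 had opposite signs in Ly6Clow and Ly6Chigh macrophages, and the log2 ratios lay at least 0.25 apart, for 6 named genes and for the members' median. The difference was not tested, since each column is a group mean. Rps27 stood furthest apart, at 0.43 in Ly6Clow and -0.25 in Ly6Chigh cells, a difference of 0.68. With equal totals it was at 0.41 in Ly6Clow and -0.17 in Ly6Chigh cells. Rps20 was at 0.35 in Ly6Clow and -0.09 in Ly6Chigh cells, a difference of 0.44. With equal totals it was at 0.34 in Ly6Clow and -0.01 in Ly6Chigh cells, so the Ly6Chigh ratio was then near 0. Rpl7 was at 0.33 in Ly6Clow and -0.04 in Ly6Chigh cells, a difference of 0.36, but with equal totals its Ly6Chigh ratio was 0.04, so the signs then matched. Rpl10 differed by 0.30, with ratios of 0.05 in Ly6Clow and -0.15 in Ly6Chigh cells under equal totals, which lie less than 0.25 apart, and Rpl22l1 by 0.46, where its Ly6Clow ratio was 0.00 and, with equal totals, -0.01, so that both signs then matched too. Rpl3l differed by 0.39 at levels under 10. For the members' median the ratios were 0.03 in Ly6Clow and -0.25 in Ly6Chigh cells, a difference of 0.28. With equal totals these were 0.01 in Ly6Clow and -0.17 in Ly6Chigh cells, less than 0.25 apart. Fibroblast, T and NK cell and plasmacytoid dendritic cell markers were higher in Ly6Chigh cells at day 4 than at day 2. Fibroblast and skeletal muscle markers, and the sum of the plasmacytoid dendritic cell markers, were also higher in Ly6Clow cells at day 4 than at day 2. The part of these markers in these differences was not tested.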

How the results depend on the processing

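The members' median log2 ratios in muscle stayed within 0.1 of the reported value under the other pseudocounts, the other level limits and without the rows labelled Rpl24 and Rps12l1 (neutrophils -1.45, with 62 called lower and 1 higher). Scaling to equal totals moved the median to -2.48 for neutrophils and to -0.12 for Ly6Clow against Ly6Chigh cells at day 4. With a level limit of 1000 the count of members called in Ly6Clow against Ly6Chigh cells at day 2 was 0, because Rps27 is below that limit. Without Ly6Chigh day 4 among the macrophage groups, chosen after seeing the data as was the removal of the 2 rows, neutrophils had 64 members called lower and 1 higher. In BMDM the genes called with RvD2 numbered 137 with no filter on level, 49 without a trend and 1066 with a replicate block, and leaving out a library gave 79 (RvD2 replicate 3) to 290 (RvD2 replicate 1), with 90 without RvD2 replicate 2 and 123, 106 and 140 without control replicates 1, 2 and 3. The cause was not tested. Members called were 0 in every setting but the replicate block, where 1 passed (Rpl30, adjusted p = 0.0285 in limma). Whether replicate numbers pair the libraries is not known. After each group's mean was subtracted, same-numbered libraries correlated at 0.29, 0.02 and 0.05 over genes. Differently numbered libraries correlated at -0.261 to 0.185. With 3 libraries in a group, subtracting the mean ties these values to each other, so they cannot decide it. The members' median fold change ran from -0.047 (without RvD2 replicate 1) to 0.0079 (without RvD2 replicate 3). With 2 samples in the day 4 groups and no values per sample, muscle groups could not be refitted without a sample.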
